A study of Homo sapiens with 27 samples.

Results

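The small nucleolar RNAs of the box H/ACA class (gene names starting SNORA) and the small Cajal body RNAs (gene names starting SCARNA) that carry pseudouridine were described in HEK293T cells, a human embryonic kidney cell line. They were taken by gene name from a table of 73 listed sites in 53 snoRNA genes. The names gave 43 sites in 33 genes, 37 of them in 27 SNORA genes and 6 in 6 SCARNA genes, and the other 30 sites lie in 20 box C/D snoRNA genes (SNORD). Pseudouridine was measured by PRAISE, a chemical treatment after which a pseudouridine is read as a deletion, so that the share of reads with a deletion is the level of a site. The 6 libraries used here came from cells with a DKC1 knockdown (DKC1 KD) and cells of its negative control (DKC1 NC), each with 2 treated libraries and 1 untreated library, among 27 samples of 9 genotypes. The labels do not say how DKC1 was lowered, and the tables hold no messenger RNA, so neither the depth of the knockdown nor a marker of the cell line could be read from them. All 6 libraries were made from small RNA demethylated with the enzyme AlkB. The labels call the treated pairs technical replicates, so p-values do not measure the spread between cultures. They measure the counting error and the spread between such libraries, which in the tests of level was 1 value shared by all sites.

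An H/ACA RNA folds into hairpins joined by a hinge, the H box, and ends in the trinucleotide ACA. It is bound by dyskerin, the pseudouridine synthase encoded by DKC1, together with NHP2, NOP10 and GAR1, and it base-pairs with ribosomal or spliceosomal RNA to place a uridine of that target in the enzyme. Dyskerin is also known to be needed for H/ACA RNAs to accumulate. Small Cajal body RNAs are the related guides of spliceosomal RNAs. The sites described here are uridines of the guide RNAs themselves, not of their targets.

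Every listed site is a uridine or an unbroken run of uridines, since a deletion inside a run cannot be given to 1 base. Of the 43 sites, 28 are runs of 2 or more, the longest of 6, and 15 are single uridines. The GENCODE release 29 transcripts (GRCh38) placed a whole uridine run at the listed position in 24 of the 33 RNAs and, after a shift of 1 or 2 bases, in 4 more (SNORA4, SNORA55, SNORA74A and SCARNA5). The 5 others (SNORA101B, SNORA77B, SNORA80C, SCARNA21 and SCARNA27) were not placed and have no sequence here. In 3 RNAs, at least 1 pair of listed sites differed in how the odds of a deletion changed in the knockdown (below). These RNAs are shown whole, 5′ to 3′, with the listed uridines in capitals. In SNORA13, every listed site nevertheless kept 94.0% or more of its control level. SNORA13 lies at chr5:112161485-112161617 on the plus strand, in an intron of the long non-coding RNA EPB41L4A-AS1. SNORA75 lies at chr2:231455800-231455936 on the minus strand, in an intron of NCL, the gene of nucleolin. SNORA61 lies at chr1:28579764-28579893 on the minus strand, where it overlaps an exon of its host SNHG12.
SNORA13: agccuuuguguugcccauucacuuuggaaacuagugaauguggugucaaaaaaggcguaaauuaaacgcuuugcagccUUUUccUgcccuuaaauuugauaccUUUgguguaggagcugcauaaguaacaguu
SNORA75: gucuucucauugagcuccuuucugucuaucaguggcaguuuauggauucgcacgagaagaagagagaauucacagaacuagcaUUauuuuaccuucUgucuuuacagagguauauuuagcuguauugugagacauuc
SNORA61: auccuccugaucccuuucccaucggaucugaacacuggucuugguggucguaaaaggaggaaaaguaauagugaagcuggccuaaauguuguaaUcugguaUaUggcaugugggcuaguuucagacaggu

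The 5 sites whose level was called lower in the knockdown are shown with up to 15 bases on each side, again with the listed uridines in capitals, because they had the largest differences among the 35 tested sites. SNORA38 (chr6:31623079-31623210, plus strand) lies in an intron of PRRC2A and SNORA74A (chr5:139278781-139278978, plus strand) in an intron of MATR3. SNORA15 (chr7:56060470-56060602, plus strand) lies in an intron of the chaperonin gene CCT6A and SNORA33 (chr6:132817219-132817348, plus strand) in an intron of the ribosomal protein gene RPS12.
SNORA38 82-84: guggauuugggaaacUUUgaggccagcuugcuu
SNORA74A 104-107: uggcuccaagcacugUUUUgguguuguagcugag
SNORA15 19-23: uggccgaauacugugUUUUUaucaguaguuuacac
SNORA33 21-22: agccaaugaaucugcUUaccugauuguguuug
SNORA61 102: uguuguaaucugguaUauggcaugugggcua

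The class names were borne out by the letters of the RNAs. ACA stood exactly 3 bases before the end in 20 of the 28 placed RNAs (71.4%) and somewhere in the last 10 bases in 27 (96.4%), against 0 and 2 of 14 placed C/D RNAs (0% and 14.3%). ANANNA, the letters of the H box, started in the middle 30% of 26 of the 28 (92.9%) and of 5 of 14 C/D RNAs (35.7%). The D box letters CTGA stood in the last 15 bases of 1 of 28 (3.57%) and 13 of 14 (92.9%), and the C box letters NTGATGA in the first 20 bases of 1 of 28 (3.57%) and 7 of 14 (50%). All of these were searched on the RNA strand only. All 28 lie within a host gene, 16 of them clear of every annotated exon of it, and 6 hosts encode ribosomal proteins and 4 translation initiation factors. SNORA56 (chrX:154774998-154775126, plus strand) lies within DKC1 itself, the gene that was knocked down, where it overlaps an annotated exon.

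The letters preferred by 2 stand-alone synthases were rare at the sites. TNTAA and TNTAG, known for PUS7, each had their middle T in 1 of 38 placed sites (2.63%), in SCARNA5 and at position 42 of SNORA56, against 16 of 807 (1.98%) for each motif among the other uridine runs of the same RNAs. GTTCNA, known for TRUB1, was at 0 of 38 sites and 3 of 807 other runs (0.372%). At the C/D sites these motifs stood at 0, 1 and 0 of 22 placed sites (0%, 4.55% and 0%). In minimum free energy folds from RNAfold, 27 of the 38 sites (71.1%) held at least 1 unpaired uridine, against 366 of 807 other runs (45.4%). Listed sites are longer, and among runs of 2 or more the shares were 20 of 26 (76.9%) and 141 of 225 (62.7%). All uridines were unpaired at 15 of 38 sites (39.5%) and 305 of 807 other runs (37.8%), and among runs of 2 or more at 8 of 26 (30.8%) and 80 of 225 (35.6%), so the direction depends on the measure.

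The sites are described in a 5′ and a 3′ stretch of the RNAs, with bounds set by the outermost sites of each. In the 24 placed RNAs of up to 140 bases, 12 sites fell between positions 14 and 44, toward the 5′ end, and 22 between positions 76 and 106, toward the 3′ end. Because the bounds were read off the sites, none fell in the gap between these stretches or in the last 26 bases by construction. That gap holds 122 of the 614 other uridine runs of these RNAs, which is a description and no test of the gap. All 8 tested and placed sites with a control level of at least 50% were in the 3′ stretch, while the ninth such site, in SNORA101B, which was not placed, is listed at position 16. In the knockdown, a median of 59.98% of the control level was left over the 11 tested sites of the 5′ stretch (27.4% to 108%) and 85.3% over the 19 of the 3′ stretch (41.8% to 158%). These ranges overlap, and no test was made because sites of 1 RNA share reads.

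**Figure D1:**
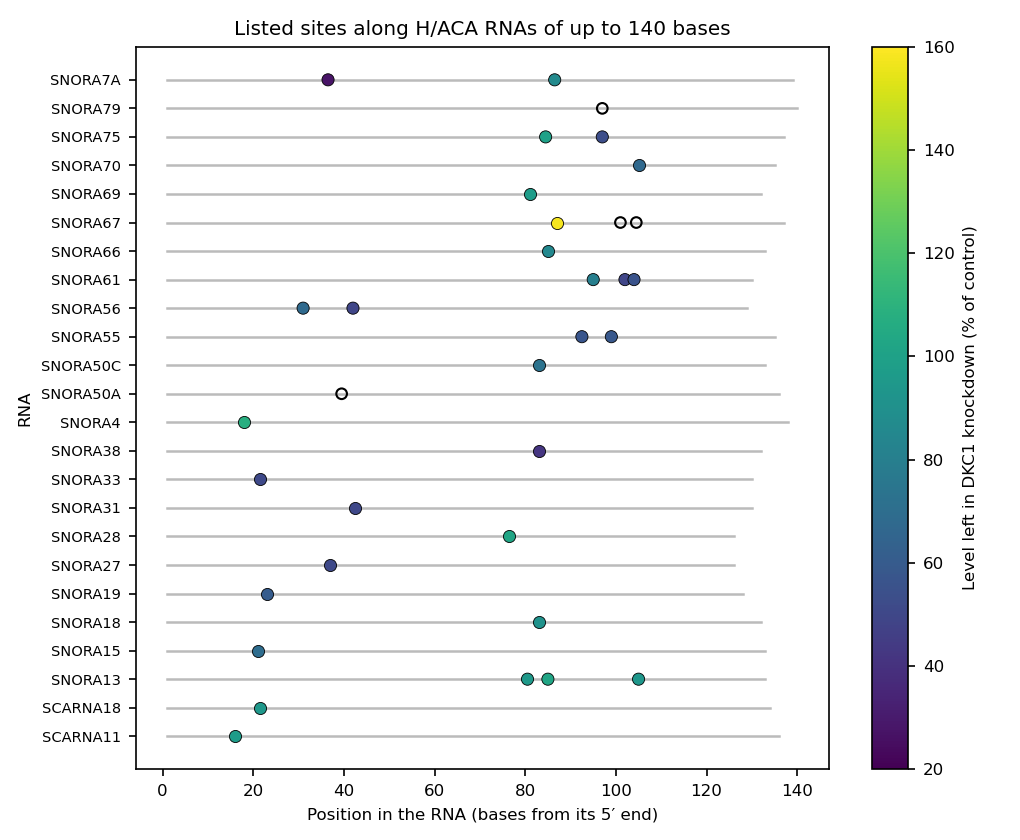
Listed sites (points) along the 24 placed H/ACA RNAs of up to 140 bases (grey lines), by position from the 5′ end in bases. Colour gives the level left in the knockdown as a percentage of the control, and open points had under 20 reads in a treated library. No site falls between positions 44 and 76, bounds that were read off these sites.

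Depth was lower in the knockdown. Over the 43 sites, the median number of covering reads was 408 and 462 in the treated control libraries, 135 and 150 in the treated knockdown libraries, 1687 in the untreated control library and 364 in the untreated knockdown library. Of the 43 sites, 35 in 27 genes had at least 20 reads in all 4 treated libraries and were tested, and 8 did not and are given apart. Untreated libraries gave a median level of 0.0445% in the control, with 17 sites at 0 and a highest value of 2.31%, and 0% in the knockdown, with 23 sites at 0 and a highest value of 1.66%. The knockdown's deposited deletion counts contradicted the rates beside them, so rate times coverage was used in their place.

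In control cells the levels of the 35 tested sites ran from 6.56% to 91.7% with a median of 17.1% and quartiles of 12.6% and 49.9%. The highest was positions 104-106 of SNORA13, a guide of small-subunit ribosomal RNA, with 91.9% and 91.4% in the treated libraries and 0.648% in the untreated one. Positions 84-85 of SNORA75 followed with 86.3% and 86.6%, positions 82-84 of SNORA38 with 79.8% and 74.5%, position 16 of SNORA101B with 76.8% and 73.1%, and positions 79-82 of SNORA13 with 71.8% and 70.6%. In this order the libraries of SNORA38 and SNORA101B overlapped, and those of the other neighbours did not. The lowest were positions 15-19 of SNORA4 (6.62% and 6.497%), position 97 of SNORA75 (6.93% and 6.24%), position 104 of SNORA61 (7.11% and 8.37%), position 95 of SNORA61 (9.66% and 9.54%) and position 31 of SNORA56 (11.2% and 8.70%). Here SNORA4 overlapped with position 97 of SNORA75, and position 95 of SNORA61 with position 31 of SNORA56. Control libraries differed by a median of 1.24 points and by up to 20.1 points, at positions 86-87 of SNORA7A.

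The level in the knockdown is a share of the reads from RNA that was still present. Coverage of these RNAs fell relative to C/D snoRNAs (below), and the depth of the knockdown is not known. The level left therefore does not measure how far these uridines depend on dyskerin. Most sites kept a large part of their level: over the 35 sites a median of 69.6% of the control level was left, with quartiles of 50.8% and 95.8% and a range from 27.4% to 158%. In single replicates the median was 67.9% and 77.7% (SD 6.94, n = 2), and leaving out knockdown replicate 1 gave 79.2%. Over the 27 tested C/D sites of the same libraries the median left was 42.5% (7.35% to 97.6%), and over all 62 tested sites 56.0%. At least 90% was left at 13 of the 35 sites and at 1 of the 27 C/D sites, and under 50% at 7 and 16. Both treated knockdown libraries lay below both control libraries at 24 sites, both lay above at 2, and at 9 the libraries overlapped. At the C/D sites both lay below at 25 of 27, so the share of members, 24 of 35, was the lower one.

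The difference between strong and weak sites was uneven. Of the 9 sites with a control level of at least 50%, 7 kept at least 90%, and their median was 95%. Of the 26 below 50%, 6 kept that much, and their median was 59.1%. At the 6 C/D sites of at least 50% the median left was 40.6% and 1 kept at least 90%. Across the 35 sites Spearman's rho between control level and percentage left was 0.18 and Pearson's r 0.26, as a description of sites that share libraries and, within an RNA, reads.

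**Figure D2:**
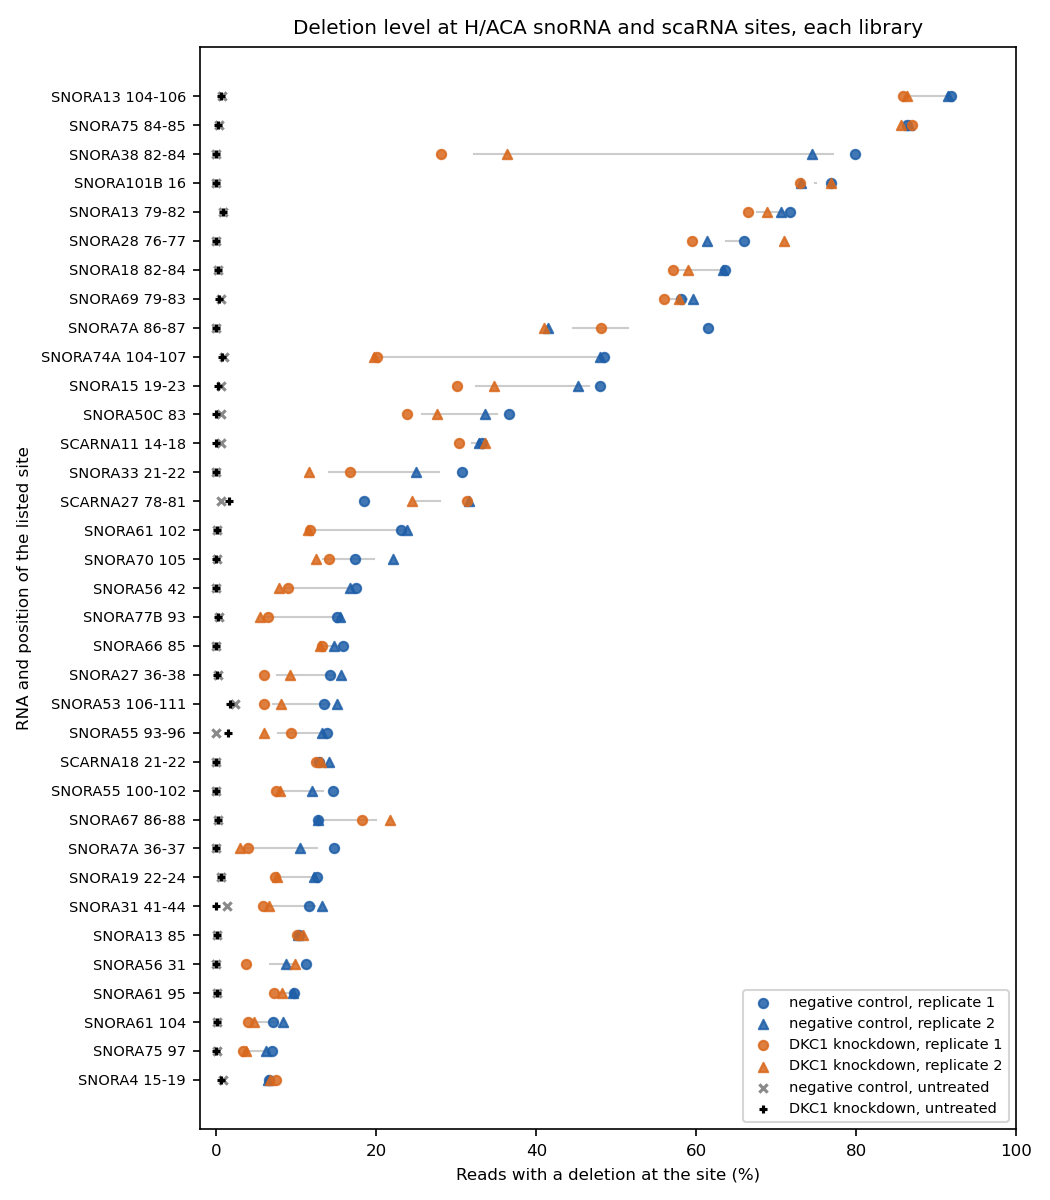
Deletion level in percent at the 35 tested sites (rows, ordered by control level) in each treated control library (blue), treated knockdown library (orange) and untreated library (crosses), with grey lines joining the means. SNORA38 and SNORA74A show the widest gaps, whereas SNORA75 84-85, SNORA101B 16 and SCARNA11 14-18 overlap.

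**Figure D3:**
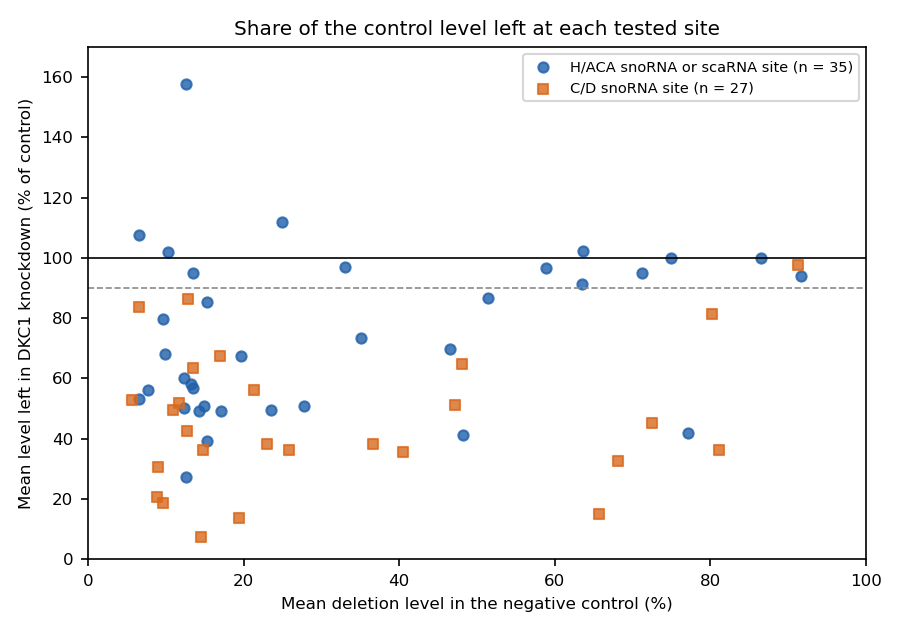
Mean knockdown level as a percentage of the mean control level against the control level in percent, for 35 H/ACA snoRNA and scaRNA sites (circles) and 27 C/D snoRNA sites (squares), with lines at 100% and 90%. Above a control level of 50%, 7 of 9 circles and 1 of 6 squares lie at 90% or more.

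Calls needed both an adjusted p under 0.05 and at least 10 points between the means. By this rule 5 of the 35 sites were lower and 0 were higher, beside 27.4% of all 62 sites of the table lower and 0% higher, and 12 of the 27 C/D sites lower. The share of members, 5 of 35, was below that background. Weak sites have little room for a fall of 10 points, and by the adjusted p alone 21 of the 35 were lower and 0 higher (13 of the 21 had control levels under 20%), beside 69.4% and 0% of the table and 22 of 27 C/D sites. No site had an unadjusted p under 0.05 with a higher level.

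The widest change was at positions 82-84 of SNORA38, where 83 of 104 and 114 of 153 reads carried the deletion in the control (79.8% and 74.5%) and 9 of 32 and 16 of 44 in the knockdown (28.1% and 36.4%), with 0 in both untreated libraries. The libraries were far apart, and the mean went from 77.2% ± 3.75 to 32.2% ± 5.83 (SD, n = 2; limma-moderated adjusted p = 5.9e-09). Among the 9 sites with control levels of at least 50%, it was the one that had under 50% left. Without either knockdown replicate the call was lost, at adjusted p of 0.0986 and 0.0724.

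Positions 104-107 of SNORA74A, a guide of large-subunit ribosomal RNA, had the most reads of all members in each treated library. The level was 48.5% and 48.0% in the control, from 11481 and 13252 reads, and 20.02% and 19.8% in the knockdown, from 8387 and 8640 reads, with 0.908% and 0.651% untreated. The mean fell from 48.2% ± 0.305 to 19.9% ± 0.185 (SD, n = 2), 41.2% of the control, with a p-value too small for the software to represent. This call held without any 1 library.

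Positions 19-23 of SNORA15 stood at 47.9% and 45.2% in the control and 30.1% and 34.7% in the knockdown, and fell from 46.6% ± 1.90 to 32.4% ± 3.20 (SD, n = 2; limma-moderated adjusted p = 0.000144). Positions 21-22 of SNORA33, a guide of large-subunit ribosomal RNA, stood at 30.7% and 24.9% and at 16.7% and 11.5%, and fell from 27.8% ± 4.08 to 14.1% ± 3.63 (adjusted p = 0.0171, limma-moderated), on only 30 and 52 knockdown reads. The groups did not overlap at either site. Both calls were lost without knockdown replicate 1 or 2. That at SNORA33 was also lost when the snRNA sites joined both the dispersion fit and the adjustment (limma-moderated adjusted p = 0.0534). In that fit the adjusted p was 1.9e-10 at SNORA74A and 1.8e-06 at position 102 of SNORA61. Position 102 of SNORA61 stood at 23.1% and 23.8% in the control, from 3147 and 3923 reads, and at 11.7% and 11.5% in the knockdown, from 2011 and 2269 reads. It fell from 23.5% ± 0.495 to 11.6% ± 0.129 (SD, n = 2; limma-moderated adjusted p = 1.7e-43), and the call held without any 1 library.

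Below 20% in the control, losses of similar proportion were spread over many RNAs without reaching 10 points. The smallest share left was at positions 36-37 of SNORA7A, with 14.7% and 10.5% in the control and 3.92% and 2.99% in the knockdown, 27.4% of the control (limma-moderated adjusted p = 0.0111). Position 93 of SNORA77B went from 15.3% ± 0.247 to 5.97% ± 0.701, 39.1% of the control, and position 42 of SNORA56 from 17.1% ± 0.489 to 8.38% ± 0.714, 49.1% (SD, n = 2 each). SNORA19, from 10599 and 12162 control reads, went from 12.4% ± 0.272 to 7.43% ± 0.153, 60% of the control. SNORA27, SNORA53 and SNORA31 kept 50.8%, 49.3% and 50.1%. Both replicates of the knockdown were below both of the control at each of these, and each passed the adjusted p alone. SNORA53 had the highest untreated levels of all members, 2.31% and 1.66%. SNORA66, whose host is RPL5, kept 85.3% (15.3% to 13.0%; adjusted p alone, limma-moderated, 0.0475). SNORA70, whose host is RPL10, stood at 19.7% ± 3.40 and 13.3% ± 1.12 and SNORA50C at 35.1% ± 2.08 and 25.7% ± 2.70, and neither passed the test (limma-moderated adjusted p of 0.1003 and 0.0829).

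A second set of sites had mean levels near those of the control, some of them on few reads. Positions 84-85 of SNORA75 stood at 86.3% and 86.6% in the control and 87.0% and 85.6% in the knockdown. The libraries overlapped, and the difference of the summed reads was -0.243 points with a 95% Newcombe interval of -2.04 to 1.46, which covers counting error only. Position 16 of SNORA101B stood at 76.8% and 73.1% and at 73.0% and 76.8%, with an interval of -8.76 to 8.12 points. Positions 76-77 of SNORA28, a guide of small-subunit ribosomal RNA, stood at 66.0% and 61.3% and at 59.5% and 71.0% on 37 and 31 knockdown reads, with an interval of -11.5 to 13.5 points. Among these 3 sites the interval was narrowest at SNORA75, and at SNORA101B and SNORA28 it also holds changes of several points in either direction.

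Positions 79-83 of SNORA69, whose host is RPL39, stood at 58.1% and 59.6% in the control and 55.9% and 57.8% in the knockdown, with an interval of -4.74 to 0.804 points. Positions 82-84 of SNORA18 stood at 63.6% and 63.4% and at 57.1% and 59.0%, so that 91.4% was left, and this small difference passed the adjusted p alone (limma-moderated, 3.0e-08). Positions 15-19 of SNORA4, the lowest control level among the tested sites, stood at 6.62% and 6.497% and at 7.46% and 6.67%, on 5 deletions in each knockdown library. The interval there was -3.20 to 6.12 points, wide beside the level itself. Positions 86-87 of SNORA7A, a guide of large-subunit ribosomal RNA, stood at 61.5% and 41.4% and at 48.1% and 41.0%. The spread of the control libraries covered the difference, and the interval was -18.3 to 8.66 points. At these sites an unchanged level and a sizeable change cannot be told apart.

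Of the 5 sites with a higher mean, positions 86-88 of SNORA67 had the largest difference, with 31 of 245 and 45 of 356 reads in the control (12.7% and 12.6%) and 4 of 22 and 5 of 23 in the knockdown (18.2% and 21.7%). Both knockdown libraries were above, but the difference did not pass the test (limma-moderated adjusted p = 0.299), and the interval ran from -2.20 to 21.4 points. With limma on percentage points, and with the untreated rate subtracted, the adjusted p was 0.0277 and 0.0280. Over all alternatives it ran from 0.0277 to 0.639, and the difference stayed under 10 points except with the deposited counts, which reverse it to -12.6 points.

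Several RNAs carry more than 1 listed site, and these sites can be compared within the same molecules. SNORA13, SNORA61 and SNORA67 have 3 sites each and SNORA7A, SNORA55, SNORA56 and SNORA75 have 2, while the other 26 RNAs have 1. Responses were compared as differences of log odds ratios (knockdown over control) over the 10 pairs with enough reads, an analysis added after the values were seen. Nearby sites share reads, so these p-values describe the libraries. In SNORA75, printed whole above, position 97 stood at 6.93% and 6.24% in the control and 3.34% and 3.67% in the knockdown, 53.3% of the control, whereas positions 84-85 kept 99.8%. The log odds ratios differed by -0.63 ± 0.17 (SE; limma-moderated adjusted p over the pairs = 0.00071).

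In SNORA61, position 95 stood at 9.66% and 9.54% and at 7.18% and 8.13%, 79.8% of the control, and position 104 at 7.11% and 8.37% and at 3.96% and 4.73%, 56.1%. With 49.4% left at position 102, position 95 responded less than position 102 (difference 0.61 ± 0.10, SE; limma-moderated adjusted p = 9.6e-09) and than position 104 (0.38 ± 0.13; adjusted p = 0.0073). Positions 102 and 104, with 1 base between them, were not told apart (-0.23 ± 0.12; adjusted p = 0.0933, limma-moderated).

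In SNORA13, positions 104-106 went from 91.9% and 91.4% to 85.9% and 86.4%, positions 79-82 from 71.8% and 70.6% to 66.4% and 68.9%, and position 85 stood at 10.3% and 10.1% and at 10.0% and 10.8%. The first and second passed the adjusted p alone (limma-moderated, 7.3e-09 and 0.0123) with 94.0% and 95% left. On the odds scale positions 104-106 changed more than positions 79-82 (-0.40 ± 0.11, SE; adjusted p = 0.00071, limma-moderated) and than position 85 (0.59 ± 0.13 for the difference in favour of position 85; adjusted p = 3.4e-05). Position 85 and positions 79-82 were not told apart (0.19 ± 0.11; adjusted p = 0.112, limma-moderated).

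In SNORA55, positions 93-96 stood at 13.8% and 13.2% and at 9.35% and 5.94%, and positions 100-102 at 14.5% and 11.98% and at 7.48% and 7.96%, with 56.7% and 58.2% left. In SNORA56, position 31 stood at 11.2% and 8.70% and at 3.68% and 9.82% and position 42 at 17.4% and 16.7% and at 8.89% and 7.88%. Neither pair differed in response (0.03 ± 0.34 and 0.44 ± 0.37, SE; limma-moderated adjusted p of 0.932 and 0.257), nor did the pair of SNORA7A (-1.18 ± 0.69; 0.112), with standard errors wide enough to hide sizeable differences.

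The small Cajal body RNAs were thinly covered, and 3 of their 6 sites were tested. Of these, 0 were called in either direction, beside 27.4% of all 62 tested sites lower and 0% higher. With 3 sites, a count of 0 cannot be told from that share. There were 0 with an unadjusted p under 0.05 and 0 called by limma on percentage points or by Fisher's exact test. Those tests use the same reads, so they are no separate check. Positions 14-18 of SCARNA11 stood at 33.2% and 32.9% in the control and 30.4% and 33.6% in the knockdown, with an interval of -7.54 to 6.23 points. Positions 21-22 of SCARNA18 stood at 12.8% and 14.1% and at 12.5% and 13.0%, with an interval of -7.21 to 8.05 points. Positions 78-81 of SCARNA27 stood at 18.4% and 31.5% and at 31.3% and 24.5%, with an interval of -5.74 to 9.60 points. In each of the 3 the libraries of the groups overlapped, and at SCARNA27 the control libraries differed by more than the group means.

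The 8 sites under 20 reads were not tested, and their values are counts with wide limits. In SCARNA16, 44 of 48 and 40 of 48 control reads carried the deletion at positions 106-108 and 8 of 16 and 10 of 13 knockdown reads, with an interval of the difference of -44.2 to -8.17 points. In SCARNA5, of the mixed C/D and H/ACA kind, the counts at positions 99-101 were 10 of 31 and 6 of 36 and then 2 of 4 and 3 of 5, an interval of 0.600 to 58.7 points. In SCARNA21 they were 7 of 9 and 4 of 7 and then 2 of 3 and 1 of 1 at position 79. Only for SCARNA16 and SCARNA5 did the counting interval leave out 0, in opposite directions.

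In SNORA67, position 101 had 66 of 139 and 82 of 208 and then 6 of 16 and 1 of 10, and positions 104-105 had 65 of 139 and 78 of 208 and then 3 of 16 and 3 of 10, with intervals of -30.0 to 4.10 and -31.3 to 1.503 points. Positions 39-40 of SNORA50A had 13 of 91 and 23 of 135 and then 2 of 15 and 1 of 17. Positions 30-31 of SNORA80C had 15 of 144 and 18 of 162 and then 0 of 16, which allows up to 18.8%, and 1 of 11. Position 97 of SNORA79 had 7 of 124 and 8 of 144 and then 0 of 16 and 1 of 22. At these sites neither a loss nor an unchanged level can be told at this depth.

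Relative to C/D snoRNAs, the RNAs themselves were covered less in the knockdown. Covering reads per gene were set against the summed C/D coverage of the same library, and all 33 H/ACA snoRNA and scaRNA genes were lower (edgeR's quasi-likelihood test, adjusted p under 0.05), a count that became 15 lower and 2 higher with TMM factors. In the table, 67.9% of the 53 genes were lower and 9.43% higher. Their median log2 change was -1.90, which is 26.9% of the control, and ran from -3.72 in SNORA80C to -0.52 in SNORA74A. The C/D genes had a median of 0.04 (-0.39 to 0.98), with 3 of 20 lower and 5 higher. They are themselves the scale, so their nearness to 0 follows in part from it. SNORD118 gave 62718 of 100170 and 67616 of 111276 C/D reads in the treated control libraries, and 24371 of 316230 in the untreated one. In the knockdown it gave 53572 of 89992 and 68739 of 112837, and 20702 of 288974 untreated. In bulk RNA fewer cells holding an RNA and less of it per cell cannot be told apart.

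With DESeq2's own size factors 20 of the 33 were lower and 4 higher, and under these and the TMM factors all 20 C/D genes were higher. Those factors shift the median of all 53 genes from -1.42 to -0.13 and -0.02 on the log2 scale. The member median minus the C/D median was between -1.99 and -1.88 under every scale and left-out library tried. A change of scale shifts all genes of a library alike, so it could hardly move this difference, which is no check of the scale. With snRNA coverage as the scale all 33 were lower. On that scale 10 of 20 C/D genes were lower too and 0 higher, with a C/D median of -0.79, or 8 and 1 with a median of -0.62 once RNU2-1, whose untreated coverage may be capped, was left out.

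SNORA80C had 174, 144 and 162 reads in the untreated and the treated control libraries and 7, 16 and 11 in the knockdown, and fell by 3.72 ± 0.24 on the log2 scale (SE, edgeR adjusted p = 1.9e-08). SNORA15 went from 12155, 1540 and 1740 reads to 907, 136 and 150 (-3.52 ± 0.08; edgeR adjusted p = 2.8e-12), and SNORA67 from 5282, 245 and 356 to 443, 22 and 23 (-3.52 ± 0.13; edgeR adjusted p = 1.1e-10). SNORA56, within DKC1, went from 490, 1142 and 1231 to 58, 135 and 165 (-2.93 ± 0.09; edgeR adjusted p = 3.0e-11), and SNORA50C from 1606, 435 and 494 to 205, 63 and 76 (-2.75 ± 0.10; edgeR adjusted p = 1.0e-10). All 3 knockdown libraries were below their control counterparts in each of these RNAs. Whether the place of SNORA56 within the targeted gene bears on its fall was not tested.

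The smallest falls were in SNORA74A (-0.52 ± 0.07, SE; edgeR adjusted p = 3.1e-05), at 12003, 11481 and 13252 reads in the control and 7061, 8387 and 8640 in the knockdown, and in SNORA61 (-0.74 ± 0.07; edgeR adjusted p = 1.2e-06). Relative to C/D coverage, untreated libraries gave knockdown over control ratios of 0.0440 to 0.644 and treated libraries 0.0794 to 0.726 over the 33 genes, against 0.616 to 1.82 and 0.834 to 2.84 over the C/D genes. The fall was thus seen with and without the chemical treatment. In SNORA53 the ratio was 0.468 untreated and 0.246 treated. All 6 SCARNA genes were among the 33, from -2.68 in SCARNA21 to -1.42 in SCARNA27.

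Amount and level are set side by side here. Spearman's rho between the log2 change in coverage and the percentage of level left was 0.019 over the 35 sites, as a description of sites that share libraries. SNORA74A and SNORA61, with the smallest falls in coverage, both held a site called lower. SNORA18, SNORA69 and SNORA75 had 28.3%, 28.4% and 34.1% of their coverage left and kept 91.4%, 96.7% and, at positions 84-85, 99.8% of their level. The 5 called sites lie in RNAs with 8.69% (SNORA15) to 69.8% (SNORA74A) of their coverage left.

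**Figure D4:**
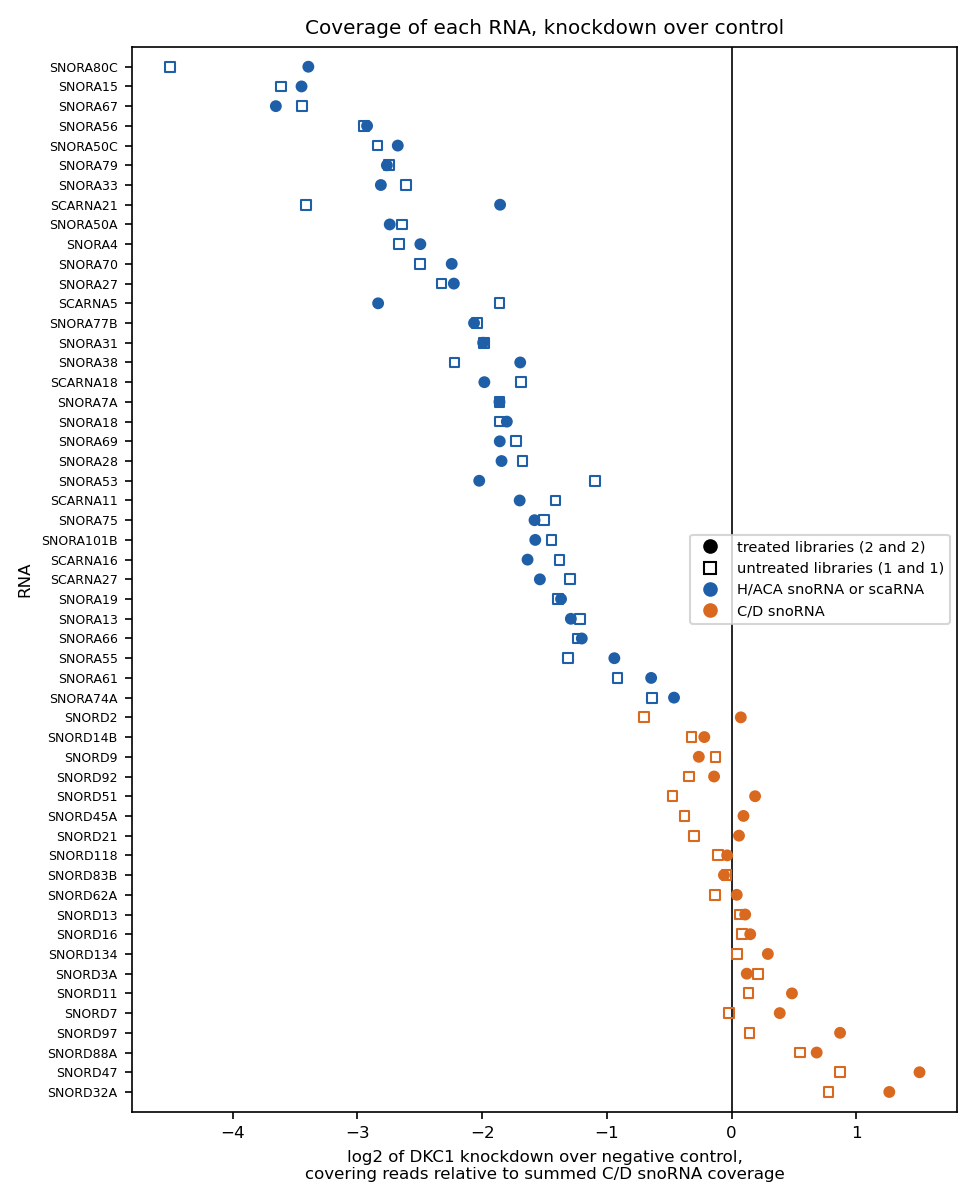
log2 of the knockdown over control ratio of covering reads, relative to summed C/D snoRNA coverage, for each RNA in treated (filled) and untreated (open) libraries. All 33 H/ACA and scaRNA genes (blue) lie below 0 and C/D genes (orange) around it; with TMM or DESeq2's own size factors the zero moves, 2 or 4 of the 33 are called higher and all 20 C/D genes are.

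In the authors' deposited table, 22 of the 43 sites carry the label DKC1-dependent, as do 26 of the 30 C/D sites. Of the 5 sites called lower here, 4 carry it. The exception is SNORA15, whose relative change in the authors' deposited table is 0.2998, while the smallest among labelled sites is 0.321. Of the 17 labelled sites that were tested, 13 were not called here, and 15 of the 17 were lower by the adjusted p alone, as were 6 of the 18 tested sites without the label. Of the 8 sites under 20 reads, 5 carry the label.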

How the data were processed

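Only the DKC1 NC and DKC1 KD samples have snoRNA values. Per the submitters' processing notes, cutadapt, UMI-tools 1.0.0, BWA, SAMtools 1.14 and GRCh38 were used, with no role or parameter given. How sites were filtered and runs aligned is not given in the sources used here, and the table holds listed sites only, so a site gained in the knockdown would not be seen. Per the file headers, the deposited values are counts of reads with a deletion and of covering reads, and the deletion rate as a fraction. The authors' change columns are values of another kind, a signed difference of mean fractions after the untreated rate is subtracted and its unsigned size relative to the control.

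Control counts equalled rate times coverage at all 43 sites in each library. In the knockdown they did so at 2 and 0 of 43 in the treated libraries and 20 in the untreated one, whereas the product was whole within 0.02 reads at all 43, so the product was used.

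Sites with at least 20 reads in 4 treated libraries were tested with a quasi-binomial model, dispersion moderated by limma 3.58.1 (squeezeVar, R 4.3.3) and kept at 1 or more, then a two-sided F test, adjusted by Benjamini-Hochberg over the table's 62 sites. Adjusted p-values of sites come from it. The moderated dispersion was 1.34 at every tested member, so these p-values rest on read counts and a shared spread, not on a site's own replicate spread. With limma on percentage points, position 102 of SNORA61 had an adjusted p of 0.0025, against 1.7e-43 in the quasi-binomial test. Coverage was tested per gene (its site with most reads) with edgeR 4.0.16, quasi-likelihood, adjusted over 53 genes, with library size set to C/D coverage and treatment as covariate. Each script was tested on simulated data. Named sites were the called ones, the 5 highest and 5 lowest control levels, RNAs with 2 or more sites, every SCARNA and the 5 uncalled sites with most level left. Members, lists and rules were chosen with earlier results of these data known. Intervals are 95% Newcombe intervals from Wilson limits on summed reads. A count of 0 allows 3 reads of the total. Intervals and limits cover counting error only. Sequences came from GENCODE release 29 and folds from RNAfold 2.7.2. SNORA7A, SNORA50A, SNORA50C, SNORA74A, SNORA77B, SNORA80C and SNORA101B have related copies, and how reads were shared among copies is not given. The main tests did not pair samples by replicate number. Replicate differences in control and knockdown correlated at 0.084 over 62 sites. These differences include counting error, so a weak correlation cannot decide whether the numbers mark pairs.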

Additional observations from a re-analysis of the deposited data

How the results depend on the processing

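The 5 sites called lower were called in full with the untreated rate subtracted, limma on percentage points, Fisher's exact test, and minimums of 10 reads or none (6 called each). Leaving out the floor on dispersion changed no value, because the shared dispersion of 1.34 lay above it, so it is no separate check. The count was 3 with a minimum of 50 reads, 2 with a 20-point threshold, 21 with no minimum difference and 30 with the deposited knockdown counts, which give a median of 0% left. It was 2 to 8 with 1 library left out, where a lone library is assumed to vary like the others, and the median left was 69.3% to 79.2%. SNORA38, SNORA15 and SNORA33 were lost without either knockdown library. With the replicate block the count stayed at 5, with 33 genes lower in coverage, and the block changed no call of a member. Member genes lower and higher in coverage numbered 15 and 2 with TMM and 20 and 4 with DESeq2's own size factors, a change that comes from the scale itself.

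Signs that reversed all belong to sites not called. With the deposited counts these were SNORA4 (-6.56 points), SNORA13 85 (-10.2), SNORA67 86-88 (-12.6), SCARNA27 (-25.0) and SNORA28 (-63.7). SNORA75 84-85 became 0.0881 with the untreated rate subtracted. With 1 library left out, the differences ran from -1.92 to 1.88 points in SNORA101B, -17.0 to 3.18 in SNORA7A 86-87, -3.61 to 9.51 in SCARNA27, -4.22 to 7.29 in SNORA28, -2.66 to 0.547 in SCARNA11, -0.861 to 0.544 in SNORA75 84-85 and -0.196 to 0.620 in SNORA13 85. The causes were not tested. Depth limits the knockdown values, whose treated libraries had medians of 135 and 150 reads.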
